A study of Mus musculus with 23 samples.

Results

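The CLK kinases (Clk1, Clk2, Clk3 and Clk4) and the SRPK kinases (Srpk1 and Srpk2) belong to 2 enzyme families that phosphorylate SR proteins, the serine- and arginine-rich factors that help the spliceosome choose exons. These 6 genes were taken by symbol from a table of 35976 genes measured in microglia, the resident immune cells of the brain, isolated from the mouse striatum. All 6 passed the filter on low counts that left 16121 genes for testing. The mice were male C57BL/6J, 9 weeks old, and pressed a lever for intravenous infusions in 15 daily sessions of 2 hr. The Abstinence group (7 libraries) had taken methamphetamine at 0.05 mg/kg per infusion and then stayed drug-free in its home cages for 21 days. The Maintenance group (8 libraries) took the same drug dose and was collected right after its last session. The Saline group (8 libraries) self-administered 0.9% saline and was also collected right after its last session. The samples used here hold no saline group kept through the 21 days. In the comparison of Abstinence with Saline the drug history, the later age and the time since the last session therefore cannot be told apart. Against Maintenance, the drug-free time of Abstinence, its later age and its time since the last session cannot be told apart either. The labels do not say that each library came from its own animal, so p-values measure the spread between these libraries.

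SRPKs sit largely in the cytoplasm and phosphorylate the arginine- and serine-rich tail of SR proteins, which lets the import receptor Tnpo3 carry them into the nucleus. CLKs act in the nucleus, where further phosphorylation releases SR proteins from nuclear speckles to the sites of splicing. CLK activity responds to temperature within the range of body temperature in mammals, being higher in cooler cells, and in mouse cells a part of the Clk1 and Clk4 transcripts keeps introns and stays in the nucleus until heat or loss of CLK activity releases it. The gene annotation (GENCODE M21) lists 13 transcripts of Clk1, of which 1 codes for protein and 7 retain an intron, and 14 transcripts of Clk4, of which 4 code for protein and 7 retain an intron. The values here are read counts per gene, which do not separate such transcripts.

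CLKs are also called LAMMER kinases, after a stretch of amino acids in the kinase domain that marks the family. The coding sequence at that place is printed for the 4 CLK genes, since it is the feature that defines them and the place where Clk3 departs from the other 3. The lines give the coding strand of GRCm38 (GENCODE M21), 30 bases each, with the 18 bases of the motif in capitals.
Clk1, chr1:58412982-58413011, minus strand: gaacatTTAGCAATGATGGAAAGGattctt
Clk2, chr3:89175407-89175436, plus strand: gagcatCTAGCCATGATGGAAAGGatcctg
Clk3, chr9:57752150-57752179, minus strand: gaacacTTGGTTATGATGGAGAAGattcta
Clk4, chr11:51280373-51280402, plus strand: gagcacCTGGCAATGATGGAGCGGatctta
Translated, the capitals of Clk1, Clk2 and Clk4 read LAMMER and those of Clk3 do not. The motif was not found in the translated coding sequences of Srpk1 and Srpk2, which belong to a neighbouring kinase family. Each stretch lies within a single coding exon. Over whole coding sequences, Clk1 and Clk4 were the most alike pair of members, with 74.56% of aligned bases identical, followed by Srpk1 and Srpk2 with 70.87% and Clk2 and Clk3 with 70.75%.

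The libraries held 54970954 to 94827095 counts (median 75394102) and 12459 to 17034 detected genes. The summed level of 10 microglia markers was 53163 to 61738 CPM in Abstinence, 42008 to 62637 CPM in Maintenance and 50321 to 64028 CPM in Saline, where CPM is the counts-per-million value with library sizes scaled by the trimmed mean of M values (TMM), and none of the 10 was at 0 in any library. Since the tissue label reads neuronal, markers of striatal neurons were also summed, and they came to 33.1 to 72.0 CPM in Abstinence, 25.9 to 377 CPM in Maintenance and 20.8 to 62.0 CPM in Saline. Tmem119, a gene specific to microglia in the brain, averaged 3782 ± 233 CPM in Abstinence, 3889 ± 484 CPM in Maintenance and 4210 ± 667 CPM in Saline (SD). Gene detection was lowest in Maintenance libraries 6 (12459 genes) and 7 (12740 genes), while Maintenance 8 held 73140 CPM of choroid plexus and ependymal markers, so the fits were repeated without these 3, and values from them are given beside the named genes called with Maintenance and beside Srpk1, Srpk2 and Clk3. Mean log2 CPM of 10 neutrophil markers was lower in Maintenance (-1.44 ± 1.17, SD, n = 8) than in Saline (1.68 ± 2.04, n = 8; two-sided exact permutation test, adjusted p = 0.0343 over 39 tests). That difference was -3.55 without Maintenance 6, 7 and 8, against -3.12 with them, and then no longer passed (exact permutation test, adjusted p = 0.182). Abstinence had -1.89 ± 0.65 for that list (n = 7; against Saline, exact permutation test, adjusted p = 0.0343). The summed list was 10.2 to 150 CPM in Abstinence, 4.26 to 172 CPM in Maintenance and 44.9 to 860 CPM in Saline, and the granule genes Mpo and Elane were at 0 in all 7 Abstinence and all 8 Maintenance libraries. Of 6 monocyte markers the mean log2 CPM was 1.29 ± 0.96 in Maintenance and 3.13 ± 0.93 in Saline (n = 8 each; exact permutation test, adjusted p = 0.0343). Their summed level was not lower by median, at 132 CPM in Maintenance (95.4 to 231) and 124 CPM in Saline (95.7 to 312). The log2 mean gives each gene the same weight. Vcan, Chil3 and Plac8 were at 0 in 4, 3 and 1 Maintenance libraries and in 1, 0 and 0 Saline libraries. Without Maintenance 6, 7 and 8 the monocyte difference in mean log2 CPM was -1.46, against -1.83 with them (exact permutation test, adjusted p = 0.225). The 1 cell type marker called by edgeR in any comparison was Enpp2, a gene abundant in choroid plexus, with lowest, median and highest levels of 104, 233 and 31127 CPM in Maintenance and 23.1, 71.8 and 268 CPM in Saline. Its log2 fold change was 5.44 ± 1.26 (SE; adjusted p = 0.0480 by edgeR), which was 1.34 without Maintenance 6, 7 and 8 (adjusted p = 0.211), and its part in the other results was not tested. Of the same list, Ttr, Folr1, Kl and Clic6 were at 0 in 4, 5, 7 and 7 Maintenance libraries and in 7, 3, 8 and 6 Saline libraries. The Enpp2 medians alone therefore do not measure choroid plexus RNA. In bulk libraries fewer cells of a type and less RNA per cell cannot be told apart.

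Per length, the 6 kinases spanned more than 2 orders of magnitude and had the same order of means in all 3 groups. Dividing CPM by the length of the principal transcript, Clk1 averaged 162 CPM per kb over the 23 libraries (range 115 to 189), above every library's value for any other member. Clk4 followed with 35.1 CPM per kb (26.2 to 47.9) and Clk3 with 21.5 CPM per kb (16.4 to 27.96), and the ranges of Clk4 and Clk3 overlapped. Srpk2 averaged 8.27 CPM per kb (6.22 to 11.8) and Srpk1 3.82 CPM per kb (2.49 to 7.39), also with overlapping ranges. Clk2 was lowest at 0.962 CPM per kb (0.0873 to 1.84), below every library's value for any other member.

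**Figure D1:**
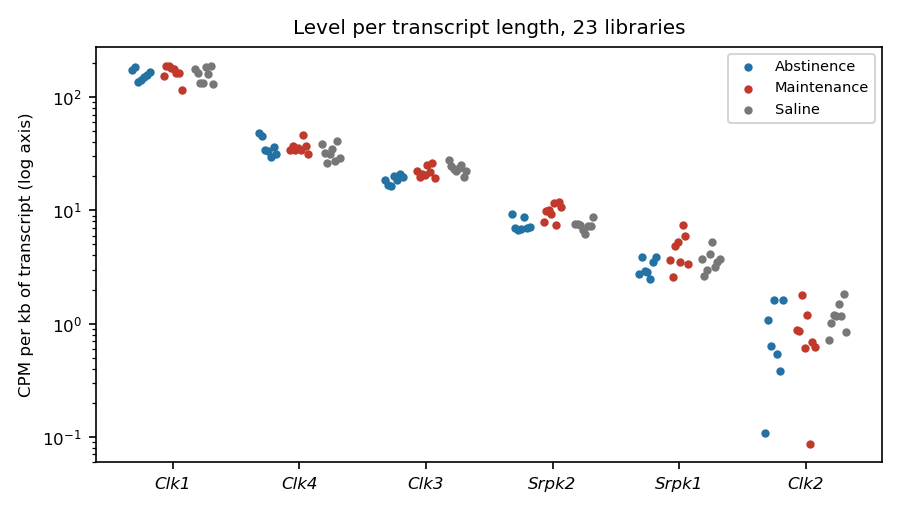
Level of each kinase in each of the 23 libraries, in CPM per kb of principal transcript on a log axis, with Abstinence, Maintenance and Saline libraries side by side within each gene. Clk1 stands above all others (115 to 189 CPM per kb) and Clk2 spreads most widely (0.0873 to 1.84 CPM per kb).

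Clk1 therefore made up most of the summed CLK level per length, and its mean share differed between groups by less than 1 SD. Counts per gene do not separate transcripts that retain an intron, so these are not shares of spliced transcripts. As a share of summed CLK level per length, it was 73.7% ± 1.60 in Abstinence (SD, n = 7), 73.6% ± 2.89 in Maintenance (n = 8) and 73.4% ± 1.71 in Saline (n = 8). Clk3 held 8.76% ± 1.22 of that sum in Abstinence, 9.84% ± 1.40 in Maintenance and 11.03% ± 1.52 in Saline. Within the SRPK pair, Srpk2 held 70.2% ± 5.46 of the sum of Srpk1 and Srpk2 in Abstinence, 68.5% ± 9.37 in Maintenance and 67.0% ± 6.29 in Saline.

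Among the SRPKs, Srpk2 was higher right after the last methamphetamine session than after saline, and after 21 drug-free days its fitted level differed from Saline by less than its error. Srpk2 (chr5:23503356-23684642) encodes the SRPK best known from neurons. Its level had a lowest, median and highest value of 43.2, 45.8 and 59.8 CPM in Abstinence, 47.8, 64.7 and 76.3 CPM in Maintenance and 40.4, 47.7 and 56.7 CPM in Saline. All 8 Maintenance libraries lay above the Saline median and 6 of 8 above the highest Saline library, while all 7 Abstinence libraries lay below the Maintenance median. Maintenance averaged 63.8 ± 10.4 CPM and Saline 47.8 ± 4.73 CPM (SD, n = 8 each), a log2 fold change of 0.42 ± 0.10 (standard error, SE), or 1.33-fold, with an adjusted p of 0.0496 by edgeR's quasi-likelihood test with Benjamini-Hochberg adjustment over all genes. Srpk2 was the only 1 of the 6 members called in that comparison at an adjusted p under 0.05, against 0.707% of all tested genes called in either direction and 0.335% called higher.

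The Srpk2 call lay at the threshold. The estimate stayed between 0.37 and 0.47 when each library was left out in turn, but the adjusted p passed in 5 of those 23 fits (without Maintenance 1 or 6, Abstinence 1 or 5, or Saline 8) and missed in the other 18 (range 0.0188 to 0.105). Without Maintenance 6, 7 and 8 the log2 fold change was 0.40 (adjusted p = 0.0656). Adding the means of oligodendrocyte and neutrophil markers to the fit gave 0.40 (adjusted p = 0.386), with a standard error of 0.15 in place of 0.10. The neutrophil mean itself went with group (-1.89 in Abstinence, -1.44 in Maintenance and 1.68 in Saline). The fit with these covariates therefore cannot fully separate group from neutrophil markers, for this gene or any other. DESeq2 and limma voom called Srpk2 with adjusted p = 0.00384 and 0.0147. Summed over their 10 genes, oligodendrocyte markers ranged from 1315 to 5332 CPM in Maintenance and from 648 to 5414 CPM in Saline, and beyond that fit the part of other cell types in this difference was not tested.

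Abstinence averaged 48.8 ± 6.66 CPM of Srpk2 (SD, n = 7), and 5 of its 7 libraries lay below the lowest Maintenance library. Against Maintenance the log2 fold change was -0.38 ± 0.10 (SE; adjusted p = 0.0722 by edgeR), which did not pass and was -0.38 without Maintenance 6, 7 and 8 (adjusted p = 0.0685), while DESeq2 and limma voom gave adjusted p = 0.00967 and 0.017. Against Saline it was 0.03, with a 95% interval from -0.18 to 0.25 that does not reach the estimate of Maintenance against Saline. The 3 comparisons share groups, and each is given by its own values.

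A part of the Srpk2 count can come from its neighbour. The 3′ end of Srpk2 overlaps the end of Kmt2e, a chromatin reader of the trithorax family, by 880 bases, and 14.0% of the 75-base stretches of the principal Srpk2 transcript also occur in Kmt2e transcripts. The labels do not state that counting used strand, so reads from the overlap cannot be assigned. Kmt2e averaged 121 ± 16.7 CPM in Abstinence (SD, n = 7), 133 ± 14.1 CPM in Maintenance and 121 ± 5.74 CPM in Saline (n = 8 each). Its log2 fold change for Maintenance against Saline was 0.14 ± 0.08 (SE; adjusted p = 0.505 by edgeR), beside 0.42 for Srpk2.

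**Figure D2:**
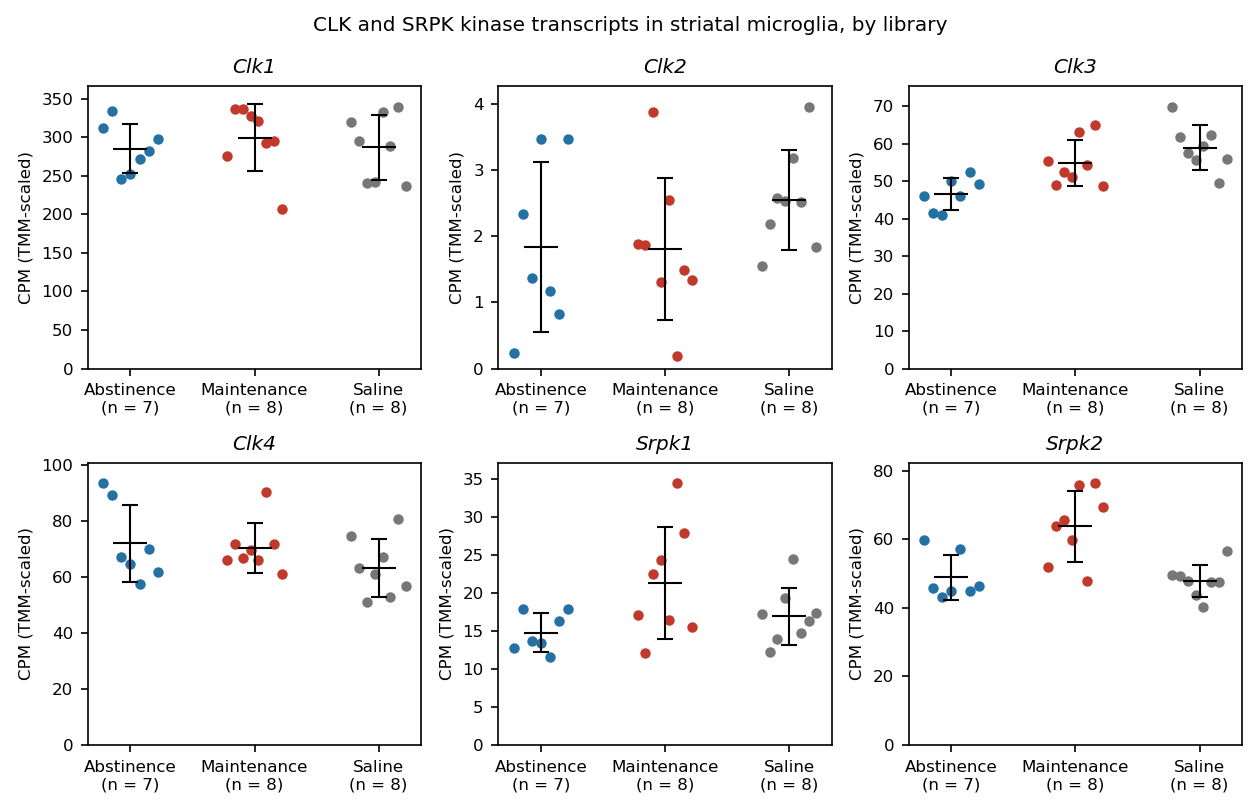
Level in CPM (TMM-scaled, linear axis from 0) of the 6 kinases in each library (points), with group means and SD (bars), for Abstinence (n = 7), Maintenance (n = 8) and Saline (n = 8). Srpk2 is highest in Maintenance (63.8 ± 10.4 CPM), Clk3 is lowest in Abstinence (46.6 ± 4.28 CPM), and the groups overlap for every member.

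Srpk1 (chr17:28587648-28622528), the SRPK studied most in dividing and cancer cells, spread more widely around its mean than Srpk2 in each group and passed the test in no comparison. Its lowest, median and highest levels were 11.6, 13.6 and 17.9 CPM in Abstinence, 12.1, 19.8 and 34.4 CPM in Maintenance and 12.3, 16.8 and 24.4 CPM in Saline. The 2 highest Maintenance libraries were numbers 6 and 7, those with the fewest detected genes. Maintenance against Saline gave a log2 fold change of 0.33 ± 0.18 (SE; adjusted p = 0.525 by edgeR), which was 0.12 without Maintenance 6, 7 and 8. Abstinence against Maintenance gave -0.53 ± 0.19 (SE; adjusted p = 0.227), which was -0.33 without these 3 libraries. Within libraries the log2 ratio of Srpk1 to Srpk2 was -1.64 ± 0.62 in Maintenance and -1.52 ± 0.40 in Saline (SD, n = 8 each; exact permutation test, adjusted p = 0.728), so the 2 SRPKs were not shown to differ in their response. Maintenance 6 had both the highest Srpk1 level and the lowest Srpk2 level of its group.

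Srpk3 (chrX:73772608-73778925), the third SRPK gene and best known from muscle, is no member but was taken up among other kinases of splicing proteins, and its levels were lowest where those of Srpk2 were highest, in Maintenance. Its lowest, median and highest levels were 17.8, 20.6 and 24.1 CPM in Abstinence, 4.65, 12.98 and 17.1 CPM in Maintenance and 14.6, 19.7 and 25.6 CPM in Saline. All 7 Abstinence libraries lay above all 8 Maintenance libraries, with means of 21.0 ± 2.26 CPM in Abstinence and 12.5 ± 3.80 CPM in Maintenance (SD). The log2 fold change was 0.75 ± 0.19 (SE), or 1.68-fold, with adjusted p = 0.0475 by edgeR. None of the 6 members was called in that comparison, against 0.949% of all tested genes, 0.397% higher and 0.552% lower. For Maintenance against Saline, Srpk3 had a log2 fold change of -0.70 ± 0.18 (SE; adjusted p = 0.0665 by edgeR), with all 8 Maintenance libraries below the Saline median. The Srpk3 call in Abstinence against Maintenance was kept in 5 of the 23 fits with 1 library left out (Maintenance 3, 5, 7 or 8, or Saline 7; adjusted p 0.0248 to 0.114). Maintenance 7 held the lowest Srpk3 value, 4.65 CPM. Without Maintenance 6, 7 and 8 the estimates were 0.54 for Abstinence against Maintenance and -0.51 for Maintenance against Saline, and neither was called. No 75-base stretch of the principal Srpk3 transcript occurs in another gene.

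**Figure D3:**
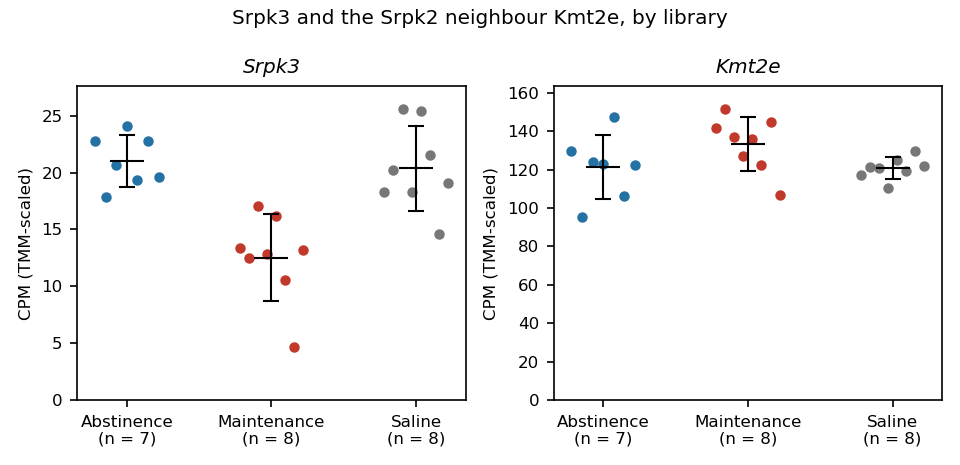
Level in CPM (TMM-scaled, linear axis from 0) of Srpk3, the third SRPK gene, and of Kmt2e, whose 3′ end overlaps that of Srpk2, in each library with group mean and SD. Srpk3 is lower in Maintenance (12.5 ± 3.80 CPM) than in the other groups, and Kmt2e ranges from 95.3 to 151 CPM with overlapping groups.

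Among the CLKs, Clk3 showed the largest shift relative to its error, with lower levels after abstinence. Clk3 (chr9:57750621-57766235), the member without the exact LAMMER motif, had a lowest, median and highest level of 40.9, 46.1 and 52.3 CPM in Abstinence, 48.6, 53.3 and 65.1 CPM in Maintenance and 49.5, 58.4 and 69.8 CPM in Saline. All 7 Abstinence libraries lay below the Saline median and 5 of 7 below the lowest Saline library. Abstinence averaged 46.6 ± 4.28 CPM (SD, n = 7) and Saline 59.0 ± 5.96 CPM (n = 8), a log2 fold change of -0.34 ± 0.09 (SE), or 0.79-fold. The unadjusted p of the edgeR test was 0.0006 and the adjusted p 0.333, so it was not called. None of the 6 members was called in Abstinence against Saline by edgeR, against 0.0186% of all tested genes called (0.0124% higher and 0.0062% lower), 3 of 16121, and 707 genes with an unadjusted p under 0.05. DESeq2 and limma voom each called Clk3 there, with adjusted p = 0.0184 and 0.0147.

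Against Maintenance, Clk3 in Abstinence had a log2 fold change of -0.23 ± 0.09 (SE; adjusted p = 0.236 by edgeR), with all 7 libraries below the Maintenance median. Maintenance against Saline gave -0.10 ± 0.08 (SE; adjusted p = 0.717). These were -0.22 and -0.13 without Maintenance 6, 7 and 8, neither called. In the annotation 15.4% of the 75-base stretches of the principal Clk3 transcript also occur in transcripts of Edc3, a decapping factor. Edc3 had a log2 fold change of -0.04 ± 0.14 for Abstinence against Saline (SE; adjusted p = 0.999 by edgeR), beside -0.34 for Clk3.

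Clk1 and Clk4 passed the test in no comparison. Clk1 (chr1:58411988-58424088) had a lowest, median and highest level of 245, 282 and 334 CPM in Abstinence, 207, 309 and 337 CPM in Maintenance and 236, 292 and 339 CPM in Saline. Its groups overlapped throughout, and the 95% interval of the log2 fold change was -0.28 to 0.14 for Abstinence against Maintenance, -0.22 to 0.20 for Abstinence against Saline and -0.14 to 0.26 for Maintenance against Saline.

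Clk4 (chr11:51263114-51281770), the closest relative of Clk1, had a lowest, median and highest level of 57.5, 67.1 and 93.4 CPM in Abstinence, 60.9, 68.2 and 90.4 CPM in Maintenance and 51.1, 62.0 and 80.5 CPM in Saline. The log2 fold change was 0.18 ± 0.11 for Abstinence against Saline (SE; adjusted p = 0.999 by edgeR) and 0.15 ± 0.11 for Maintenance against Saline (adjusted p = 0.673). The 5′ end of Clk4 overlaps the gene BC049762 by 549 bases, which had a median of 11 counts. As a description, log2 CPM of Clk1 and Clk4 correlated over the 23 libraries with Pearson r = 0.56, and r = 0.58 after removing group means. No other pair of members reached an r of that size in the positive direction. Clk2 and Clk4 had r = -0.52, with a Spearman correlation of -0.29. Maintenance 6 and Abstinence 1 had the lowest Clk2 (14 and 17 counts) and the highest Clk4 (90.4 and 93.4 CPM) of their groups. The 23 libraries differed in depth and gene detection, and the part of this in the correlations was not tested. Clk1 and Clk4 share no 75-base stretch.

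Clk2 (chr3:89164795-89177087) passed the test in no comparison and varied most of the 6 between libraries of each group, with a coefficient of variation of 69.8% in Abstinence, 59.3% in Maintenance and 29.8% in Saline. Its lowest, median and highest levels were 0.233, 1.37 and 3.47 CPM in Abstinence, 0.188, 1.68 and 3.88 CPM in Maintenance and 1.55, 2.52 and 3.95 CPM in Saline. The lowest values rest on 17 counts in Abstinence 1 and 14 counts in Maintenance 6, while the other libraries held 75 to 358 counts. The log2 fold change of Maintenance against Saline was -0.49 ± 0.53 (SE; adjusted p = 0.829 by edgeR), and its 95% interval, -1.58 to 0.61, takes in a loss and a gain alike.

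**Figure D4:**
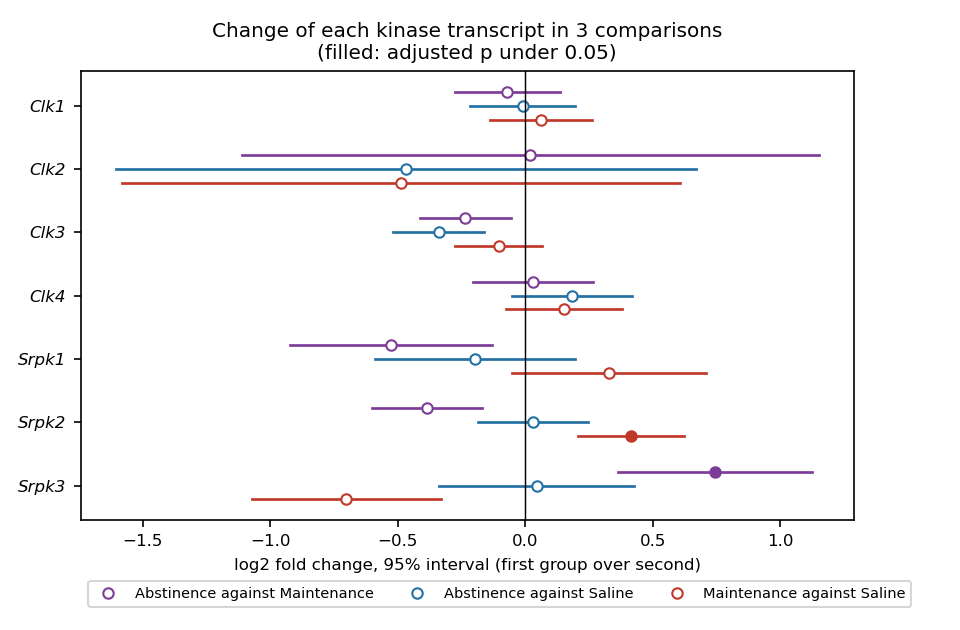
Log2 fold change of the 6 kinases and Srpk3 with 95% intervals, first-named group over second, for Abstinence against Maintenance, Abstinence against Saline and Maintenance against Saline, from 1 edgeR fit. Filled points have an adjusted p under 0.05: Srpk2 in Maintenance against Saline (0.42) and Srpk3 in Abstinence against Maintenance (0.75).

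Whether 2 members responded differently was tested through their ratio within each library, for 15 pairs in 3 comparisons. Of these 45 exact permutation tests, 1 passed at an adjusted p under 0.05. The log2 ratio of Clk3 to Srpk2 was -0.21 ± 0.23 in Maintenance and 0.30 ± 0.20 in Saline (SD, n = 8 each), a difference of -0.51 (two-sided exact permutation p = 0.00109, adjusted p = 0.0490). By group means Clk3 was thus the lower of the 2 in Maintenance and the higher in Saline, in CPM not divided by length. Single libraries went the other way, with Clk3 above Srpk2 in Maintenance 1 and 6 and below it in Saline 8. The same ratio was -0.06 ± 0.23 in Abstinence (n = 7), against Saline a difference of -0.36 (exact permutation test, adjusted p = 0.0909). Without Maintenance 6, 7 and 8 none of the 45 passed.

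For each member, the genes of most similar log2 CPM over the 23 libraries, out of about 9056 searched, are given as a description. The libraries differed in depth and gene detection, and the part of this in the correlations was not tested. Clk1 lay closest to Btg2, Nfkbia and Fos (Pearson r = 0.87, 0.86 and 0.84), all known as early-response genes that stimuli induce quickly. These correlations were as high after removing group means (0.89, 0.86 and 0.86). Clk4 lay closest to Mtpn (r = 0.79), Srek1, a splicing regulator with an RS domain (0.68), and Hspa1a, an inducible heat-shock chaperone (0.66). Srpk2 lay closest to Tcp1, a subunit of the cytosolic chaperonin (r = 0.88), Vps36 (0.80) and Ube2k (0.79), and after removing group means these were 0.75, 0.67 and 0.69. Clk3 lay closest to Tpst2 (0.79), Srpk1 to Cd200 (0.80) and Clk2 to Phb2 (0.82). After removing group means these were 0.56, 0.73 and 0.82, and those of Clk4 with Mtpn, Srek1 and Hspa1a were 0.76, 0.62 and 0.64.

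The substrates of these kinases moved in both directions right after methamphetamine. Of 13 SR protein genes tested, 3 rose and 1 fell in Maintenance against Saline, with a median log2 fold change of 0.26 beside 0.01 over all genes tested. Of all tested genes, 0.335% were called higher and 0.372% lower in that comparison. This list and those below were drawn up with earlier results of these data known, so their counts are a description and no test of the lists. Tra2a, a splicing activator of the SR-like class, had 28.3 to 39.4 CPM in Maintenance and 13.3 to 23.5 CPM in Saline, with no overlap, a log2 fold change of 0.81 ± 0.15 (SE; adjusted p = 0.00637 by edgeR). Srsf7 rose by 0.42 ± 0.09 and Tra2b by 0.32 ± 0.07 (SE; adjusted p = 0.0198 and 0.0359). Srsf5, also an SR protein, went the other way with 71.0 to 122 CPM in Maintenance and 126 to 206 CPM in Saline. Its log2 fold change was -0.68 ± 0.11 (SE; adjusted p = 0.00103) and the groups did not overlap. In Abstinence against Maintenance, 1 of the 13 was called, Srsf5, higher by 0.57 ± 0.11 (SE; adjusted p = 0.00773), and none was called in Abstinence against Saline. Of all tested genes, 0.397% were called higher and 0.552% lower in Abstinence against Maintenance, and 0.0186% in either direction in Abstinence against Saline. Without Maintenance 6, 7 and 8 the count for Maintenance against Saline was 4 higher and 1 lower and with the marker covariates 0 higher and 1 lower. Srsf5 was the lower gene in each of these fits. The calls of Tra2a, Srsf7 and Tra2b ended with the covariates (adjusted p = 0.124, 0.356 and 0.348 by edgeR), while their log2 fold changes were 0.90, 0.36 and 0.32. Srsf5 in Abstinence against Maintenance was 0.57 without Maintenance 6, 7 and 8 (adjusted p = 0.00802).

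By edgeR, no other listed kinase of splicing proteins and no listed phosphatase gene was called right after the drug. Of 19 other kinases of splicing proteins, among them the Dyrk, Hipk and Akt genes, none was called in Maintenance against Saline (median log2 fold change 0.13), and Srpk3 alone was called in Abstinence against Maintenance. DESeq2 and limma voom each called Top1 higher and Srpk3 lower in Maintenance against Saline. None of 8 genes for phosphatases that act on SR proteins and their nuclear partners was called by edgeR in any of the 3 comparisons. Their median was -0.07 in Maintenance against Saline. The import receptor Tnpo3 had a log2 fold change of 0.06 ± 0.13 in Maintenance against Saline (SE; adjusted p = 0.934 by edgeR).

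Of 12 genes for SR protein import and SRPK partners, 3 rose in Maintenance against Saline, beside 0.335% of all tested genes called higher. All 3 are chaperones of the classes known in human cells to bind SRPK1 and hold it in the cytoplasm: Hspa8, Hsp90aa1 and Hsp90ab1. Hspa8, the constitutive Hsc70 chaperone, had 2815 to 4129 CPM in Maintenance and 1542 to 2102 CPM in Saline, a log2 fold change of 0.90 ± 0.09 (SE; adjusted p = 1.1e-06 by edgeR). Hsp90ab1 rose by 0.75 ± 0.12 and Hsp90aa1 by 0.59 ± 0.13 (SE; adjusted p = 0.00132 and 0.0286). Without Maintenance 6, 7 and 8, Hspa8 and Hsp90ab1 were called, and Hsp90aa1 was not, at 0.55 (adjusted p = 0.113 by edgeR). With the marker covariates Hspa8 alone was called, while Hsp90ab1 was 0.63 and Hsp90aa1 0.43 (adjusted p = 0.166 and 0.470). After abstinence Hspa8 fell by 1.00 ± 0.09 and Hsp90ab1 by 0.53 ± 0.12 on the log2 scale relative to Maintenance (SE; adjusted p = 2.51e-07 and 0.0297). The Hspa8 call held without Maintenance 6, 7 and 8 (-1.05, adjusted p = 2.18e-07 by edgeR) and that of Hsp90ab1 did not (-0.51, adjusted p = 0.0685). The Hsp90ab1 call also ended by edgeR with the compared groups alone (adjusted p = 0.103). It ended too in the 17 libraries of a second deposited table (adjusted p = 0.0747), which likewise lack Maintenance 6, 7 and 8.

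Larger changes stood in the lists of cold-inducible RNA-binding proteins and heat-shock chaperones. Cirbp, induced by mild cold, had 21.8 to 50.6 CPM in Maintenance and 53.3 to 95.9 CPM in Saline, a log2 fold change of -1.21 ± 0.16 (SE; adjusted p = 7.37e-05 by edgeR), and Rbm3 fell with it by 0.72 ± 0.13 (adjusted p = 0.00471), making 2 of 3 genes of that list. The third gene listed, Rtn3, is not itself an RNA-binding protein and was not called. Of 18 genes in the heat-shock list, which also holds the factors Hsf1 and Hsf2, 9 rose and none fell. Of all tested genes, 0.335% were called higher and 0.372% lower. Since both lists were drawn up with earlier results of these data known, these counts are a description. The rises were led in size by Ahsa2 (2.702-fold) and Hsph1 (2.61-fold). The list shares Hspa8, Hsp90aa1 and Hsp90ab1 with the SRPK partners, so 3 of the 9 were counted above. Chordc1 and Dnaja1, co-chaperones of Hsp90 and Hsp70, rose by 1.03 ± 0.12 and 0.98 ± 0.10 (SE; adjusted p = 1.29e-05 and 4.23e-06 by edgeR). Without Maintenance 6, 7 and 8 the 2 cold-inducible genes were still called and 8 chaperones rose, and with the marker covariates Cirbp and 6 chaperones were called, while Rbm3 was -0.74 (adjusted p = 0.105). In Abstinence against Maintenance Cirbp was higher by 1.36 ± 0.16 and 5 of the 18 heat-shock list genes were lower, Hspa8 and Hsp90ab1 again among them. The other 3 were Ahsa2, Stip1 and Chordc1, with log2 fold changes of -1.18 ± 0.15, -1.07 ± 0.12 and -0.72 ± 0.12 (SE; adjusted p = 3.24e-05, 1.72e-05 and 0.0023 by edgeR). Cirbp was 1.40 without Maintenance 6, 7 and 8 (adjusted p = 3.17e-05) and 4 chaperones were lower. In Abstinence against Saline the 2 called genes of all these lists were the chaperones Hsph1 (1.00 ± 0.17) and Dnaja1 (0.59 ± 0.11; SE; adjusted p = 0.0196 and 0.0433 by edgeR). With the marker covariates they were 0.99 and 0.60 and neither was called (adjusted p = 1 for both). Dnaja1 was also not called with the compared groups alone (adjusted p = 0.0765) or in the 17 libraries (adjusted p = 0.0574). Of 18 nuclear speckle and RS-domain genes only Acin1, a protein bound to the exon junction complex, was called by edgeR, 0.50 ± 0.10 in Maintenance against Saline and -0.68 ± 0.10 in Abstinence against Maintenance (SE; adjusted p = 0.0152 and 0.000608). Both were called without Maintenance 6, 7 and 8, at 0.50 and -0.68 (adjusted p = 0.0437 and 0.00248). In Maintenance against Saline the Acin1 call ended with the marker covariates (0.54, adjusted p = 0.202) and in the 17 libraries (0.50, adjusted p = 0.0538). None of 10 nonsense-mediated decay genes was called in any comparison by edgeR.

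**Figure D5:**
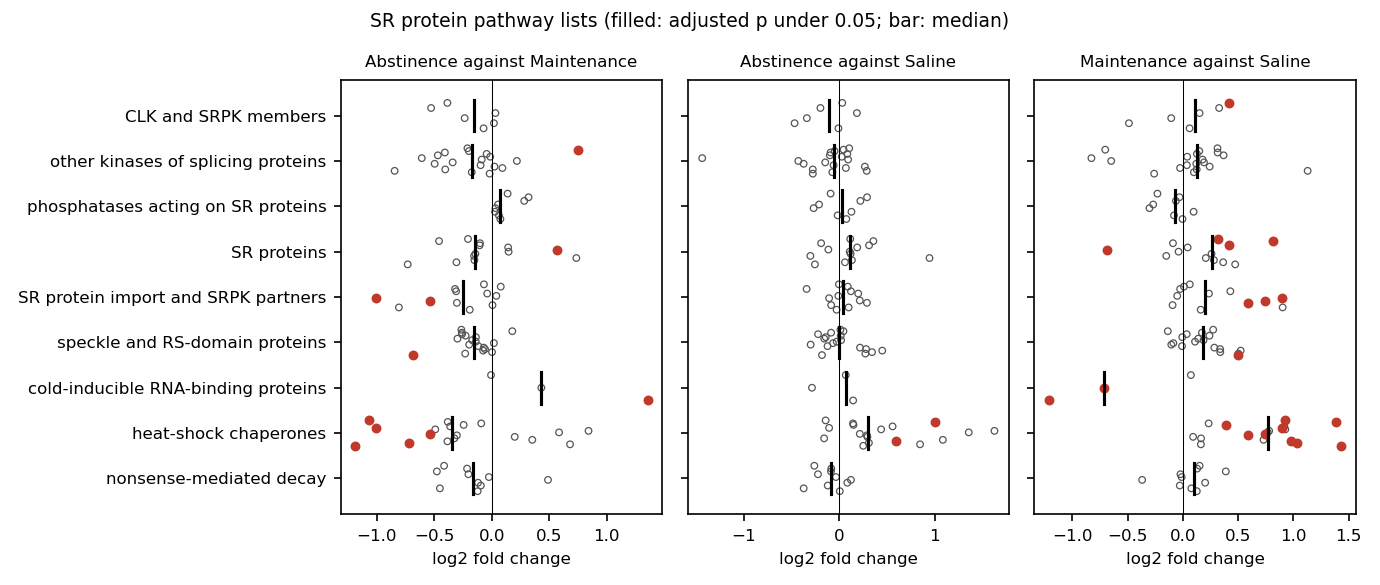
Log2 fold change of each tested gene (points) in the lists around the SR proteins, with the list median (bar), in Abstinence against Maintenance, Abstinence against Saline and Maintenance against Saline; filled points have an adjusted p under 0.05. In Maintenance against Saline 9 of 18 heat-shock list genes and 3 of 13 SR protein genes rose, and 1 of 6 CLK and SRPK members did, beside 0.335% of all tested genes.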

How the data were processed

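RNA of striatal microglia was sequenced as 23 libraries (low-input kit, per the labels' protocols). The deposited table holds whole-number read counts per gene; the submitters' processing notes name STAR (2.7.10a), Trim Galore (0.6.7) with cutadapt (1.18), DESeq2 (1.38.3) and StringTie (2.1.5) on mm10/GRCm38 but no order or settings, and whether counting used strand is not given in the sources used here. A second deposited table, named as normalized, held the same counts for 17 libraries, with 0 of 611592 values differing. It was used only to pick those libraries for an alternative. The 17 lack Maintenance 6, 7 and 8 and Saline 5, 6 and 8, so this alternative overlaps the fit without Maintenance 6, 7 and 8. No 2 libraries were identical.

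Counts were tested with edgeR 4.0.16 in R 4.3.3: genes were kept by filterByExpr (minimum count 10, minimum total 15), scaled by TMM and fitted by group over all 23 libraries with a robust quasi-likelihood model. P-values were adjusted by Benjamini-Hochberg over 16121 genes and called under 0.05. The common biological coefficient of variation was 0.831. Standard errors were taken from the F statistic. Log2 CPM used a prior count of 2. Within-library ratios and marker means were compared by two-sided exact permutation tests. DESeq2 1.42.0, limma 3.58.1 and other settings were alternatives, and the fits were tested on simulated data. Transcript lengths, shared 75-base stretches and coding sequences came from GENCODE M21, and gene positions and their overlaps from RefSeq GRCm38.p6. Depth was 54970954 to 94827095 counts per library.

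All 6 members were named whatever their p; of each other list, up to 4 called genes of smallest p, and Srsf5, Hspa8, Cirbp and Tmem119; and the 3 genes most correlated with each member (mean log2 CPM of at least 2). Kmt2e, Edc3, BC049762, Tnpo3 and Srpk3 were named for their overlap or role. The members, lists and the choice of Maintenance 6, 7 and 8 were made with earlier results of these data known; repeating the marker means without these 3 libraries was chosen after seeing the data.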

Additional observations from a re-analysis of the deposited data

Results flagged for a closer look

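Over the 6 members and 3 groups, 18 sets of values were examined for a library standing apart by Dixon's criterion, which chance meets in about 1 of 20 sets. Clk1 in Maintenance 8 was 207 CPM, the lowest of its group, with the nearest other Maintenance library at 276 CPM. Maintenance 8 is the library with 73140 CPM of choroid plexus and ependymal markers, and the part of that RNA in the low Clk1 value was not tested. Clk4 in Maintenance 6 was 90.4 CPM, the highest of its group. Maintenance 6 is the library with the fewest detected genes (12459), and the part of that in the high Clk4 value was not tested.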

How the results depend on the processing

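In Maintenance against Saline, 1 member, Srpk2, was called, also with RLE factors, DESeq2 and limma voom. The number called was 0 with upper-quartile factors, without a filter, with the replicate block, with the compared groups only, without Maintenance 6, 7 and 8, in the 17 libraries and with the marker covariates, and 0 to 1 with 1 library left out. In Abstinence against Saline it was 0, against 1 (Clk3) by DESeq2 and by limma voom, and 0 to 0 with a library left out. In Abstinence against Maintenance it was 0, against 2 (Clk3 and Srpk2) by DESeq2, 1 (Srpk2) by limma voom and 0 to 1 with a library left out; Srpk2 passed there without Maintenance 1, Maintenance 6 or Abstinence 1 (edgeR adjusted p = 0.0461, 0.0236 and 0.0415). The passing pair ratio went to 0 without Maintenance 6, 7 and 8. Log2 fold changes that changed sign were all small or imprecise: Clk1 in Maintenance against Saline (-0.028 with covariates), Clk1 and Srpk2 in Abstinence against Saline (0.026 and -0.032 by limma voom; with 1 library left out -0.053 to 0.028 and -0.024 to 0.062), Clk2 in Abstinence against Maintenance (-0.33 by limma voom, -0.16 with the replicate block, -0.33 without Maintenance 6, 7 and 8, -0.33 in the 17 libraries and -0.22 to 0.27 with 1 library left out) and Clk4 there (-0.0047 with the block and -0.041 to 0.084 with 1 library left out). The cause was not tested. With the replicate block Srpk2 in Maintenance against Saline was 0.41 (edgeR adjusted p = 0.0836), and 1 of the 3 SR protein genes higher there was still called (Tra2a); the calls of Hsp90ab1 in Abstinence against Maintenance and of Hsph1 and Dnaja1 in Abstinence against Saline ended (adjusted p = 0.0548, 0.0627 and 0.0904). Between libraries of the same replicate number, correlations of their deviations over all tested genes ran from -0.12 to 0.092. For 0 of 8 numbers were all of them above 0.1. Such a correlation over all genes cannot show whether some libraries or genes shared a batch. Tra2b and Enpp2 in Maintenance against Saline were not called without a filter (adjusted p = 0.0580 and 0.0720) or with upper-quartile factors (0.0653 and 0.0540), nor was Dnaja1 in Abstinence against Saline with upper-quartile factors (0.0807). Over all genes, calls in Maintenance against Saline, Abstinence against Saline and Abstinence against Maintenance numbered 114, 3 and 153 by edgeR, 432, 89 and 529 by DESeq2, 413, 208 and 340 by limma voom, 69, 4 and 126 with the replicate block, 57, 5 and 64 with the compared groups alone, 85, 15 and 199 without Maintenance 6, 7 and 8, 176, 56 and 238 in the 17 libraries, and 23, 0 and 137 by edgeR with the covariates, where 558 genes had an unadjusted p under 0.05 in Abstinence against Saline.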
